A study of Hydra vulgaris with 12 samples.

Results

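These results concern 21 of 38747 Hydra transcripts that gained both capless RNA ends and sense small RNA bound to Hyli in colchicine-treated animals while carrying almost no antisense small RNA bound to Hywi. Both proteins belong to the PIWI family of Hydra, a freshwater polyp whose body is built from epithelial and interstitial stem cell lineages. The members were chosen on 6 columns of counts scaled by the column total to counts per 1000000 (CPM). Each had at least 100 CPM in the colchicine degradome and at least 8-fold more there than in wild type, at least 50 CPM of Hyli sense reads with colchicine and at least 4-fold more than in wild type, and under 5 CPM of Hywi antisense reads in both kinds of animal. Folds were taken after adding 1 CPM to both values. The degradome gain was met by 325 transcripts and the Hyli sense gain by 499. Both gains were met by 30, of which 9 were removed by the limit on Hywi antisense reads.

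PIWI proteins are guided by short piRNAs to matching RNA, which they cut. In the ping-pong cycle, an antisense piRNA in one PIWI protein directs a cut in a sense transcript, and the cut fragment becomes a sense piRNA in the partner protein. A cut RNA has a 5-prime end without a cap, which degradome sequencing captures by ligating an adapter to uncapped ends. Such ends also arise in ordinary RNA decay, so a degradome read alone does not identify a PIWI cut.

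The series holds 12 samples of Hydra vulgaris, strain AEP. Wild-type whole animals gave 1 degradome library (20 animals), 1 Hywi immunoprecipitate (IP) and 1 Hyli IP (225 animals each). Interstitial-cell-depleted animals gave the same 3 libraries after colchicine, a drug that eliminates interstitial cells, from the cnnos1::GFP transgenic line, so treatment and line cannot be told apart. Whole-animal mRNA came from 3 libraries of hywi knockdown offspring, which carried a hywi hairpin transgene in epithelial stem cells (line hywi RNAi-1), and from 3 libraries of siblings without it, with 10 animals per library collected 4 days after hatching. The sibling libraries were not treated with colchicine, and mRNA of colchicine-treated animals was not analysed here. All animals were pooled and whole, so a change in the number of cells of a type and a change in RNA per cell cannot be told apart. Of the transcript names, 0 matched the reference gene table and the tables list no gene symbols, so no member carries a gene name, a known function or a sequence here. For the same reason neither the loss of interstitial cells nor the knockdown of hywi could be checked on its own transcripts.

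The degradome libraries were shallow, with 765341 counts in wild type and 176897 with colchicine, so that 1 count was worth 1.31 and 5.65 CPM. The sense columns of the Hyli IP held 2.88e+07 and 6.68e+06 counts, and those of the Hywi IP 2.81e+06 and 2.72e+06. The mRNA libraries held 2.22e+07 to 2.76e+07 counts. The IP and degradome comparisons had 1 library a condition and therefore no replicate check and no test. Their intervals and floors describe counting error alone. The transcripts t22393aep and t14592aep took up 25.0% and 13.2% of the wild-type degradome, against 0.00396% and 0.0211% with colchicine, which lowers the CPM of every other wild-type transcript.

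The values that chose the members are given first, as a description. Together the 21 transcripts made up 0.226% of wild-type degradome counts (0.366% with the 2 dominant transcripts left out of the total) and 5.10% of colchicine degradome counts. In the colchicine degradome they ranged from 101.8 to 20674 CPM with a median of 508.8 CPM, against 0 to 570.7 CPM with a median of 17.6 CPM in wild type. Of all transcripts with at least 100 CPM in the colchicine degradome, 30.2% met the 8-fold gain. Colchicine Hyli sense levels ran from 57.8 to 4482 CPM with a median of 290.6 CPM, and wild-type levels from 0.174 to 12.1 CPM with a median of 1.78 CPM. Of all transcripts with at least 50 CPM there, 23.9% met the 4-fold gain. These shares are backgrounds to a choice made on the same columns, and nothing is read from them.

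**Figure D1:**
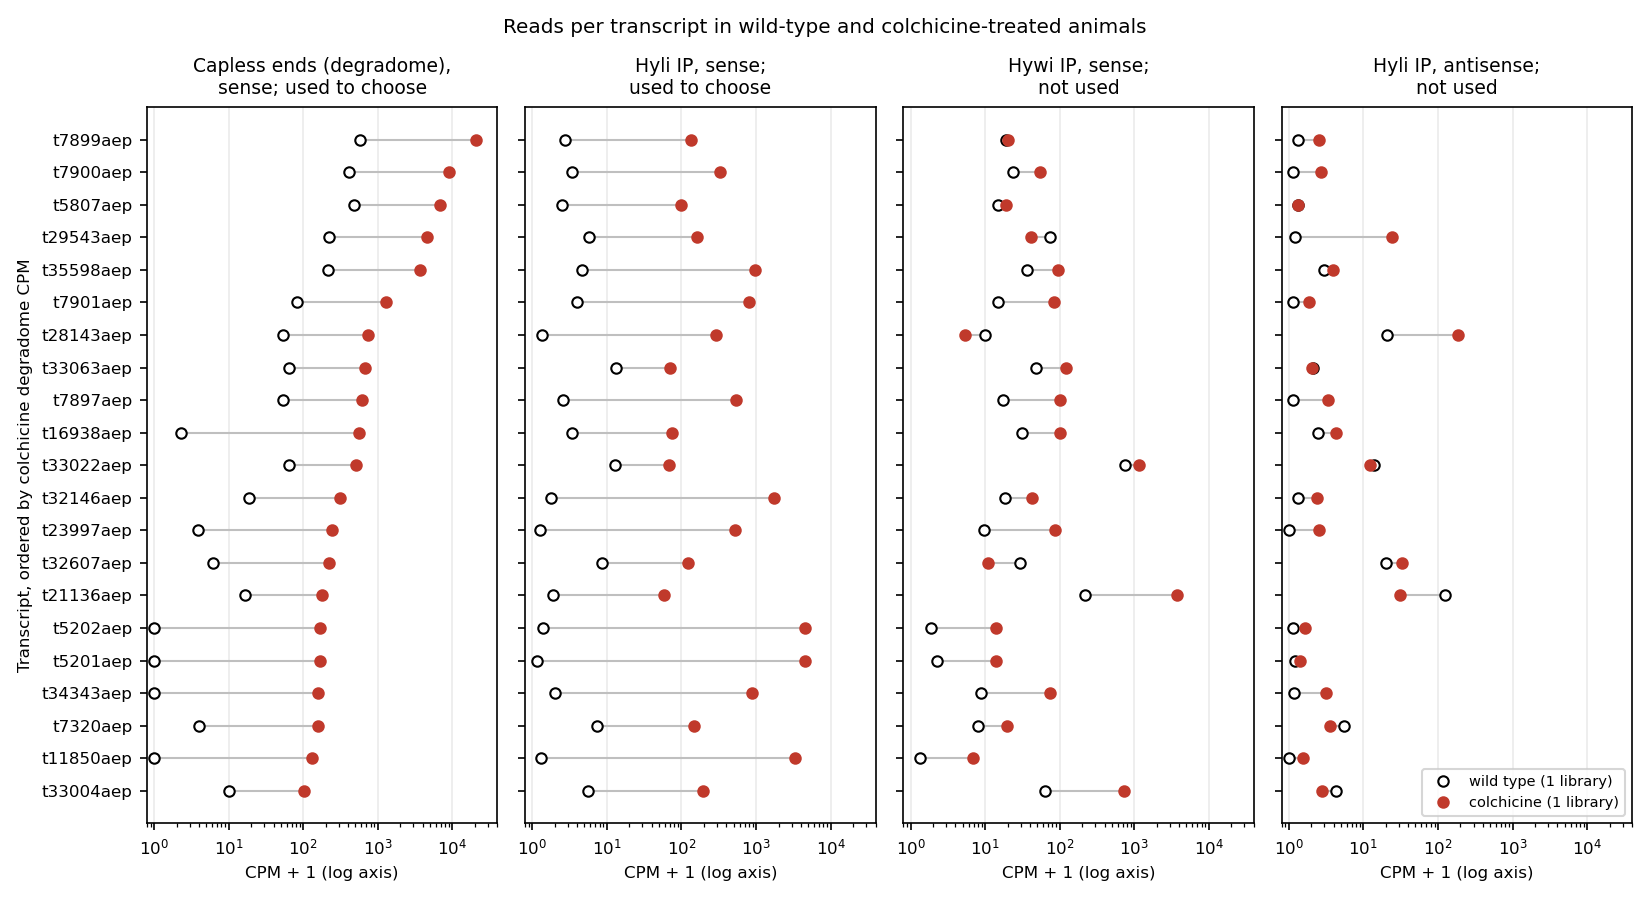
Reads of the 21 transcripts in wild-type (open) and colchicine-treated (filled) animals, as CPM + 1 on a log axis, 1 library per point, in 2 columns that chose the transcripts and 2 that did not. Hywi sense reads were higher with colchicine for 18 of the 21, and Hyli antisense reads had a median of 1.77 CPM with colchicine.

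The capless ends were concentrated in a few transcripts. Transcript t7899aep had 436.8 degradome counts in wild type and 3657 with colchicine, that is 570.7 and 20674 CPM. The ratio was 36.2 (95% interval 32.8 to 40.1), and with colchicine this transcript alone held 2.07% of the library (95% Wilson interval 2.00 to 2.13%). Transcript t7900aep was next, with 410.4 CPM in wild type and 9111 CPM with colchicine, a ratio of 22.2 (19.7 to 25.1). The single highest member held 40.5% of the members' colchicine degradome CPM, and the 5 highest held 87.9%. At the other end t33004aep reached 101.8 CPM on 18 counts, against 7 in wild type, so its ratio of 11.1 had an interval of 4.43 to 31.5. In wild type, 4 members were at 0 and 7 were at or under the floor of 3 counts.

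Hyli sense reads were led by other transcripts. Transcripts t5201aep and t5202aep each had 4482 CPM with colchicine, against 0.174 and 0.382 CPM in wild type (5 and 11 counts). Their counts were the same to the fraction in the colchicine degradome (29.8 counts each), Hyli sense (29940.2 each) and Hywi sense (35.8 each) columns, as when reads that match both are divided equally, so they are not independent of each other; both are counted among the 21 in every tally given here. Neither had a degradome count in wild type, and each was at least 43.0-fold higher with colchicine against a floor of 3 counts. The 2 columns ranked the members differently. The Spearman correlation between colchicine degradome and colchicine Hyli sense CPM over the 21 was -0.25, a description of values that both had a minimum imposed. The leading capless transcript t7899aep had 1.78 CPM of Hyli sense reads in wild type and 131.9 CPM with colchicine, below the members' median.

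The names t7897aep, t7899aep, t7900aep and t7901aep run close together, and these 4 members held 62.1% of the members' colchicine degradome CPM but 9.31% of their colchicine Hyli sense CPM. The transcript between them, t7898aep, had 19.3 CPM in the wild-type degradome and 74.1 CPM with colchicine. It missed both the degradome minimum and the 8-fold gain, and had 152.7 CPM of Hyli sense reads with colchicine. Of the 21 members, 11 had a colchicine Hyli sense count that was not whole (52.4%, against 17.6% of all transcripts above 0 in that column), and likewise 11 in the colchicine degradome (52.4% against 16.6%). Counts of a single member are therefore uncertain where reads also match another transcript. A count was taken as whole within 1e-06.

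**Figure D2:**
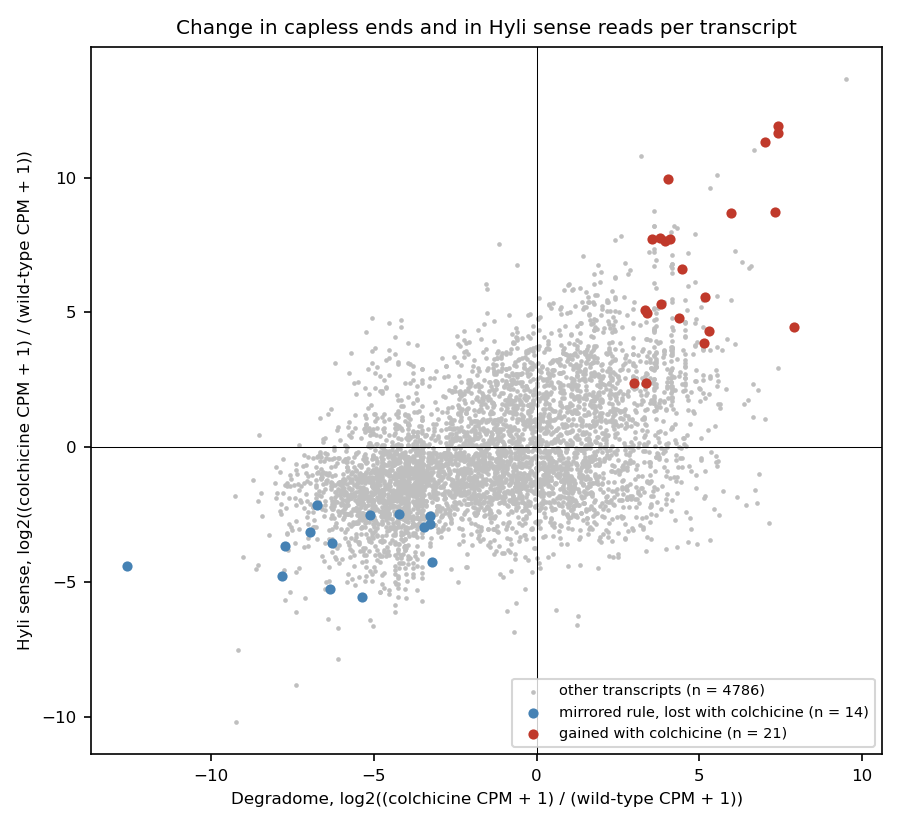
Change with colchicine in degradome reads (x) and Hyli sense reads (y), as log2((colchicine CPM + 1) / (wild-type CPM + 1)), for the 4821 transcripts that reached 10 CPM in one library or more of both readouts. The 21 members (red) lie at 3.00 to 7.93 on x and 2.38 to 11.90 on y, and the 14 transcripts of the mirrored rule (blue) lie below 0 on both axes; both sets were chosen on these axes.

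Over these 4821 transcripts, the log2 changes had a Spearman correlation of 0.47, a description across transcripts that share the same 4 libraries. At the thresholds, the members nearest the limits were t33004aep for the degradome minimum (101.8 CPM, with t22147aep outside at 90.4 CPM), t33022aep for the degradome fold (8.001, with t7297aep outside at 7.06) and t21136aep for the Hyli sense minimum (57.8 CPM, with t5759aep outside at 49.8 CPM). For the Hyli sense fold t33022aep stood at 5.19 and t4577aep outside at 2.43, and for Hywi antisense t33022aep had 3.29 CPM and t17952aep outside 6.28 CPM. The criteria alone kept out 25, 33, 23, 2 and 9 transcripts in that order.

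Hywi sense reads, which the rule did not use but which come from the same IP libraries as the Hywi antisense limit, were higher with colchicine for 18 of the 21 members, next to 21.0% of all transcripts, many of which had no such reads. The members' median was 17.3 CPM in wild type and 54.2 CPM with colchicine, and the median log2 ratio was 1.40, against 0.00 over all transcripts. Among the 19 members that reached 10 CPM with or without colchicine, 8 were higher by 4-fold or more and 0 were lower by as much. Over all transcripts with that minimum, 14.3% were higher and 30.2% lower by 4-fold or more. The 3 members with fewer Hywi sense reads with colchicine were t28143aep, t29543aep and t32607aep, named after their values were seen.

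In wild type the highest Hywi sense level was that of t33022aep, with 759.3 CPM, which had 1173 CPM with colchicine. With colchicine one transcript dominated these reads. Transcript t21136aep had 219.1 CPM in wild type (95% Wilson interval 202.5 to 237.1) and 3720 CPM with colchicine (3648 to 3793), a ratio of 17.0 (15.6 to 18.4). It held 57.2% of the members' Hywi sense CPM with colchicine. The members together went from 0.139% to 0.650% of the Hywi sense column, and from 0.117% to 0.278% without t21136aep. The direction was the same with and without it.

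Raw sense counts, not scaled for depth, were also compared between the 2 IPs. In wild type the members had 1947 Hyli sense and 3911 Hywi sense counts in all, and Hyli counts exceeded Hywi counts for 12 of 21 members. With colchicine these sums were 130096 and 17708, and Hyli exceeded Hywi for 18 of 21, all but t21136aep, t33004aep and t33022aep. The wild-type Hyli sense column held 2.88e+07 counts and the Hywi one 2.81e+06, so raw counts favour Hyli. In CPM the members' wild-type median was 1.78 for Hyli sense and 17.3 for Hywi sense. With colchicine these medians were 290.6 and 54.2 CPM. On that scale t33063aep (68.1 against 118.8 CPM) and t16938aep (72.6 against 101.4 CPM) also had less Hyli than Hywi with colchicine. The gain in Hyli sense reads was part of the choice of members, so these sums and tallies are a description.

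Summed over the members, reads were mostly sense in both Hywi IPs and in the colchicine Hyli IP. In the wild-type Hyli IP the sum was close to even between strands, although 18 of 21 members had more sense counts. With colchicine 98.3% of the members' Hywi counts (95% Wilson interval 98.1 to 98.5%) and 98.6% of their Hyli counts (98.5 to 98.6%) were sense, against 14.1% and 52.0% over all transcripts. In wild type the shares were 98.1% (97.7 to 98.5%) for Hywi and 46.8% (45.2 to 48.3%) for Hyli, against 12.6% and 71.1% over all transcripts. The wild-type Hyli share rested on t21136aep, whose 1438 antisense counts were the most of any member, and was 71.1% without it. The limit on Hywi antisense reads fixes the Hywi shares in part, and the minimum and gain of Hyli sense reads fix the Hyli shares in part, so these shares are a description. Hywi antisense counts exceeded sense counts for t11850aep in both kinds of animal and for t32607aep with colchicine.

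Hyli antisense reads were sparse, with a median of 0.320 CPM in wild type and 1.77 CPM with colchicine. They were higher with colchicine for 16 members and lower for 5, next to 51.5% and 46.1% of all transcripts. The median log2 ratio was 0.71, next to 0.04 over all transcripts, which depends on the pseudocount at this level. Only 5 members reached 10 CPM in either library, of which 2, t28143aep and t29543aep, were higher by 4-fold or more after adding 1 CPM (background 29% of transcripts at that minimum) and 0 were lower by as much (background 18.7%). On that scale t21136aep fell just short, with a log2 ratio of -1.997. Transcript t28143aep went from 19.8 CPM (17.4 to 22.5) to 184.3 CPM (173.9 to 195.3), a ratio of 9.33 (8.08 to 10.8), and held 60.2% of the members' Hyli antisense CPM with colchicine. In it both strands gained Hyli reads, since Hyli sense counts went from 10 to 1941. Transcript t21136aep went the other way, from 122.7 CPM of Hyli antisense reads in wild type to 30.0 CPM with colchicine, a ratio of 0.244 (0.209 to 0.286) with nothing added.

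The mRNA libraries played no part in the choice of members, and all 21 passed the filter on low counts. Mean mRNA levels over the 6 libraries ranged from 0.564 to 1530.02 CPM with a median of 5.93 CPM, against a median of 0.392 CPM over all transcripts. These are shares of reads per transcript, not corrected for length, since lengths were not used here. The 11 members under 10 CPM ran from 0.564 to 5.93 CPM and the other 10 from 16.6 to 1530.02 CPM. Transcript t33063aep was highest, with 1753, 1316 and 1128 CPM in wild-type siblings 1, 2 and 3 and 2054, 1523 and 1406 CPM in knockdown 1, 2 and 3. Transcript t33004aep followed, with 523.8, 456.0 and 384.3 CPM in wild-type siblings and 564.5, 502.3 and 483.2 CPM in the knockdown. Both were higher in the knockdown library of every replicate pair, but their groups overlapped. In the order of mean levels only these 2 stood clear of their neighbours. Among the other members, each range over the 6 libraries overlapped that of the next, up to t29543aep. The highest library of t29543aep (357.8 CPM) lay below the lowest of t33004aep (384.3 CPM).

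**Figure D3:**
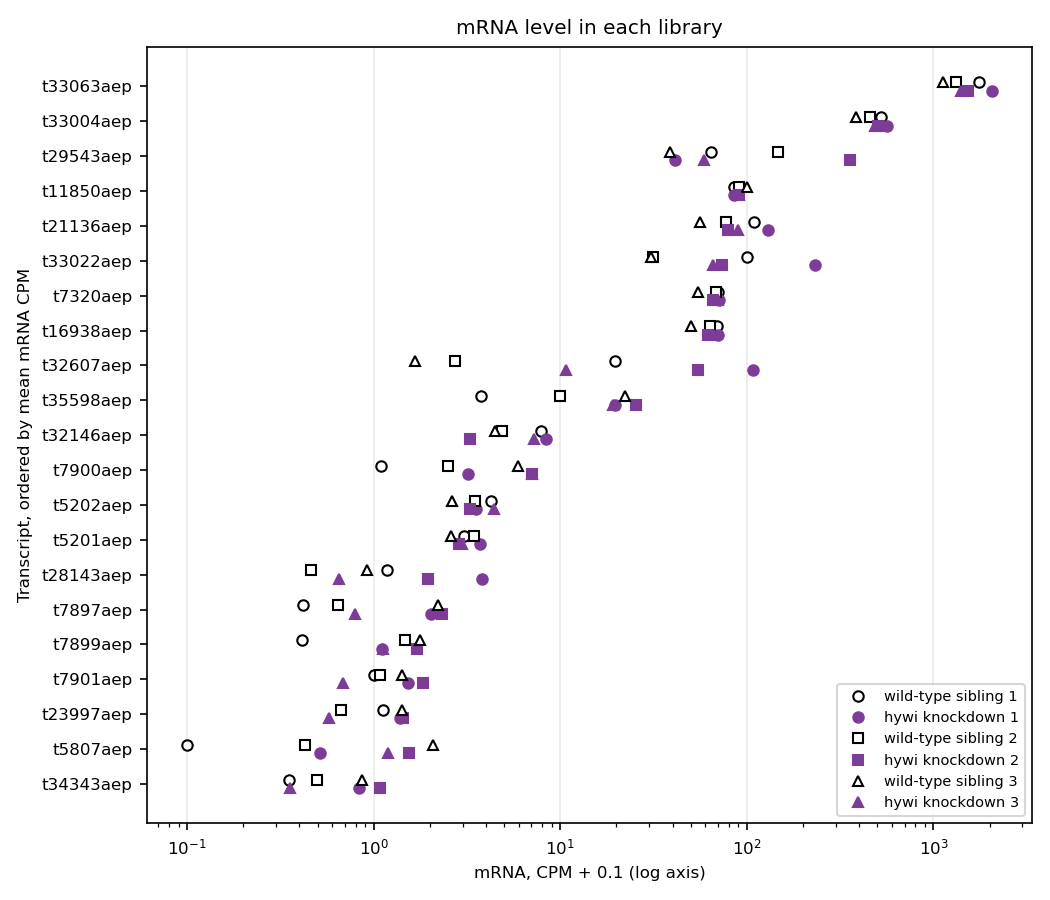
mRNA of the 21 members in each of the 6 libraries, as CPM + 0.1 on a log axis, ordered by the mean. The members span 0.564 to 1530.02 CPM on average, and for no member do the 3 wild-type siblings (open) and the 3 knockdown libraries (filled) separate.

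Capless ends were set against mRNA for each transcript as the degradome CPM divided by the mean mRNA CPM of wild-type siblings, although these came from different animals. With colchicine the ratio ran from 0.224 to 18504 with a median of 54.6, and it exceeded 1 for 19 of 21 members. Among all transcripts with at least 100 CPM in the colchicine degradome and mRNA above 0 the median was 95.7 and 89.0% exceeded 1, so the members' values lie near that background. For t7899aep, with 0.315, 1.37 and 1.67 CPM of mRNA in wild-type siblings, the ratio was 18504. For t33004aep it was 0.224. The members under 10 CPM of mRNA had a median colchicine degradome level of 618.2 CPM and Hyli sense level of 538.9 CPM. The others had 364.6 and 133.9 CPM. Over the 21 members, mean mRNA had a Spearman correlation of -0.27 with colchicine degradome CPM, -0.35 with Hyli sense CPM and 0.29 with Hywi sense CPM, too weak in counts this sparse to be read as relations.

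The members of low mRNA level varied strongly between libraries of the same group. Among the 11 members under 10 CPM the coefficient of variation over the wild-type siblings was 14.5 to 138% with a median of 48.1%, and among the other 10 it was 8.11 to 128% with a median of 28.2%. Wild-type sibling 3 was the highest of its group for 7 of the 11 and knockdown 2 the highest of its group for 7 of the 11. Over all transcripts with a mean of at least 10 counts, these libraries were the highest of their group for 22.0% and 21.3%. Of these 11, 9 had non-whole counts among their colchicine reads, so neighbours may share reads and are not independent of each other. Transcript t7900aep had 0.995, 2.39 and 5.82 CPM in wild-type siblings 1, 2 and 3 and 3.09, 6.99 and 6.97 CPM in the knockdown. Its lowest wild-type library and its highest differed more than the group means of 3.07 ± 2.49 and 5.68 ± 2.24 CPM (SD, n = 3).

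The knockdown comparison asked whether the members' mRNA depends on hywi in epithelial stem cells. In edgeR's quasi-likelihood test with Benjamini-Hochberg adjustment over 19683 transcripts, 0 of 21 members rose and 0 fell at an adjusted p under 0.05, with a background of 0% and 0%. At an unadjusted p under 0.05, 1 member was higher and 0 were lower, against 2.93% and 0.716% of all tested transcripts. DESeq2 also called 0 members higher and 0 lower, against 0.0102% and 0.00508% of tested transcripts, with 2 members higher and 0 lower at an unadjusted p under 0.05, against 1.83% and 0.645%. The median log2 fold change was 0.17 over the members and 0.02 over all tested transcripts, and 17 of 21 lay above 0, against 53% of all. Under library totals 20 lay above 0, where the median of all transcripts shifted to 0.10, and under RLE size factors 16 did. The members' median difference was 0.21, 0.77 and 0.11 in replicate pairs 1, 2 and 3, in log2 CPM after TMM scaling. For 0 members were the 2 groups free of overlap, against 5.2% of tested transcripts with the knockdown higher and 3.85% with it lower.

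The labels state no pairing. In an alternative fit, libraries with the same replicate number were treated as pairs, which their correlations set apart clearly for number 1 alone. The calls of that fit depend on this pairing. It had 2 residual degrees of freedom, so its p-values also rest in large part on variance pooled over transcripts. With the number as a block, edgeR called 2 of 21 members higher and 0 lower (Benjamini-Hochberg adjusted p under 0.05), against backgrounds of 1.17% and 0.0914%. At an unadjusted p under 0.05 the block gave 6 members higher and 0 lower, against 8.51% and 5.24% of tested transcripts. The members that rose were t32607aep and t33022aep. DESeq2 with the block called these 2 as well, with backgrounds of 0.777% and 0.208%. Of the members, 6 were higher in the knockdown in every pair and 1 was lower, against 20.1% and 20.3% of tested transcripts.

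Transcript t32607aep had 19.6, 2.61 and 1.56 CPM in wild-type siblings 1, 2 and 3 and 107.6, 54.7 and 10.6 CPM in knockdown 1, 2 and 3. Each knockdown library was above the sibling of its number, but knockdown 3 lay below wild-type sibling 1, so the groups overlapped. In edgeR the log2 fold change was 2.82 ± 1.00 (SE; adjusted p = 0.875) without the block and 3.06 ± 0.29 (SE; adjusted p = 3.1e-04) with it. Over the 11 fits without the block its adjusted p ran from 0.446 to 1.00. Over the 3 blocked fits that left out 1 pair, its log2 fold change ran from 2.44 to 3.68. Each of these had 1 residual degree of freedom, so their p-values rest mainly on variance pooled over transcripts and are not read here. Leaving out wild-type sibling 1 raised its log2 fold change to 4.64. In the small RNA of this transcript, Hywi sense reads went from 28.1 CPM in wild type to 9.92 CPM with colchicine, while Hyli sense reads went from 7.57 to 123.05 CPM. Hyli antisense reads went from 19.2 to 32.1 CPM and Hywi antisense reads from 0.104 to 2.89 CPM. With colchicine the Hywi antisense counts (48.0) exceeded the Hywi sense counts (27).

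Transcript t33022aep, named after its value was seen, had 100.4, 31.3 and 30.4 CPM in wild-type siblings 1, 2 and 3 and 232.1, 73.5 and 66.0 CPM in the knockdown. The difference within pairs was 1.12, 1.21 and 0.97 on the log2 scale, while wild-type sibling 1 exceeded knockdown 2 and 3. In edgeR the log2 fold change was 1.10 ± 0.09 (SE; adjusted p = 2.3e-04) with the block and 1.11 ± 0.56 (SE; adjusted p = 0.875) without it. Over the 11 fits without the block the adjusted p ran from 0.446 to 1.00. Without the block and without knockdown 1 the log2 fold change was 0.35, and without wild-type sibling 1 it was 1.85. Over the blocked fits that left out 1 pair the log2 fold change ran from 1.04 to 1.16. This member lay nearest 3 of the 5 thresholds of the choice. It was not a member with the 2 dominant degradome transcripts left out of the totals, with IP totals of both strands or with both CPM minimums doubled. It also failed with a pseudocount of 10 CPM and with a Hywi antisense limit of 1 CPM. At that limit t32607aep, with 2.89 CPM of Hywi antisense reads with colchicine, was not a member either. These 2 had the highest Hywi antisense levels of the members with colchicine.

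**Figure D4:**
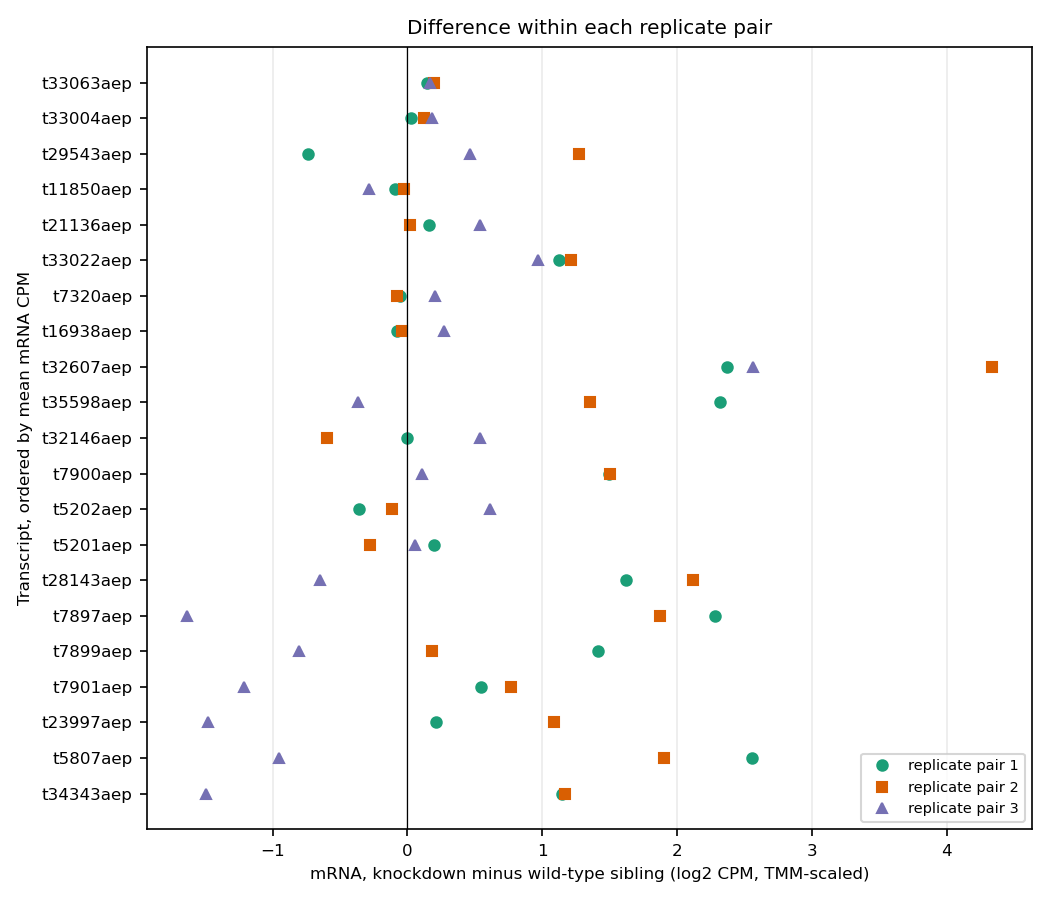
Difference in mRNA between the knockdown library and the wild-type sibling of the same replicate number, in log2 CPM after TMM scaling, for the 21 members ordered by mean mRNA. For t32607aep (2.37, 4.33 and 2.56) and t33022aep (1.12, 1.21 and 0.97) the 3 pairs lie to the right of 0, while pair 3 lies to the left of 0 for 7 of the 11 members under 10 CPM.

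Among the remaining members, t28143aep had the second highest log2 fold change without the block, 1.35 ± 0.63 (SE; adjusted p = 0.875 in edgeR). Its values were 1.08, 0.363 and 0.818 CPM in wild-type siblings and 3.69, 1.85 and 0.552 CPM in the knockdown, higher in pairs 1 and 2 and lower in pair 3. The lowest value was that of t11850aep, with 85.7, 91.0 and 100.4 CPM in wild-type siblings and 85.2, 90.3 and 91.2 CPM in the knockdown, a log2 fold change of -0.14 ± 0.13 (SE). It was the 1 member lower in every pair, and the groups overlapped. Next came t23997aep at -0.01 ± 0.45 (SE), on 0.564 to 1.31 CPM in wild-type siblings and 0.480 to 1.34 CPM in the knockdown.

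Transcripts that met only parts of the rule are given for comparison, with no test. The mirrored rule, with wild type and colchicine exchanged, found 14 transcripts. Their median Hywi sense level was 53.3 CPM in wild type and 2.75 CPM with colchicine, with a median log2 ratio of -1.98 where the 21 members had 1.40. Their median mRNA level was 6.43 CPM, next to 5.93 CPM for the members. The other 304 transcripts with the degradome gain had a median Hywi sense log2 ratio of -0.94 and a median mRNA level of 2.52 CPM. The other 478 with the Hyli sense gain had 0.77 and 3.96 CPM. The 9 transcripts with both gains but more Hywi antisense reads had a median colchicine Hyli sense level of 2471 CPM, where the members had 290.6 CPM, and a median Hywi sense log2 ratio of 2.07.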

How the data were processed

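The authors deposited 3 tables of raw estimated counts over 38747 transcripts, per the file headers: mRNA per replicate, IP small RNA with sense and antisense apart, and sense degradome counts. Per the submitters' processing notes, Trimmomatic 0.33, RSEM 1.2.31 and Bowtie 1.1.2 were used for mRNA, and cutadapt, RSEM 1.2.31 and Bowtie for the rest. All 16 value columns were matched to samples. The members and comparisons were chosen with earlier results of these data known, and the Hydra samples were grouped by their titles.

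IP and degradome columns were scaled to CPM by column totals. mRNA counts were rounded, filtered (filterByExpr), TMM-scaled and tested over all transcripts, two-sided, in edgeR 4.0.16 (R 4.3.3) against DESeq2 1.42.0. Both were first run on simulated counts that had no replicate effect, so that run cannot decide between fits with and without the block. A standard error is the log2 fold change over the root of the F statistic. Ratios have 95% conditional binomial intervals (Python 3.11.15, scipy 1.17.1).

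Libraries with the same replicate number deviated together from their group means (correlations 0.62, 0.27 and 0.30), and the others ranged from -0.43 to 0.20. For numbers 2 and 3 the margin was small. Knockdown 2 with wild-type sibling 3 gave 0.20, and knockdown 3 with wild-type sibling 2 gave 0.15. What the number marks is not given in the labels. Replicates differed by more than sampling noise (chi-square per degree of freedom 14.8 to 50.9). Labels do not say that libraries are separate cultures, so p-values measure the spread between these libraries. In the blocked fit with all pairs, on 2 residual degrees of freedom, they rest in large part on variance pooled over transcripts. In the blocked fits without 1 pair they rest mainly on it.

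Named transcripts were at most 2 at each end of a comparison, the ones nearest each threshold, and others as stated.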

Additional observations from a re-analysis of the deposited data

How the results depend on the processing

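The rule found 15 to 30 transcripts under 7 alternatives to its scaling, pseudocount and Hywi antisense limit, next to 21, and 10 with both CPM minimums doubled. Without the 2 dominant transcripts in the degradome totals 16 of the 21 remained, and with IP totals of both strands 17. Counting t5201aep and t5202aep once, chosen after seeing the data, gave 20. For mRNA, 0 members were called lower in any fit, and 0 higher in any fit without the replicate block, including the 6 that each left out 1 library. The replicate block gave 2 higher. Of the fits added once the data had been seen, blocked DESeq2 gave 2, and blocked edgeR gave 4, 3 and 6 without pair 1, 2 and 3, each on 1 residual degree of freedom, against 1.12%, 1.79% and 1.81% of all transcripts tested. The median mRNA log2 fold change ranged from 0.09 to 0.61 when libraries or pairs were left out, the highest being the blocked fit without pair 3. With all pairs the block changed no other call; in blocked edgeR fits without 1 pair, t28143aep, t29543aep, t35598aep, t7897aep and t7900aep were also called higher at least once. The median Hywi sense log2 ratio was 1.42 and 1.04 with pseudocounts of 0.1 and 10 CPM, 1.30 with totals of both strands and 1.10 with median-ratio scaling. For Hyli antisense these were 1.70, 0.11, 0.61 and 0.73. The cause of these shifts was not tested. Shallow degradome libraries limit single members, which had as few as 18 counts with colchicine.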
